A study of Mus musculus with 13 samples.

Results

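The genes described here are 10 interferon-inducible GTPases, 4 guanylate-binding proteins (Gbp2, Gbp3, Gbp5 and Gbp7) and 6 immunity-related GTPases (Irgm1, Irgm2, Igtp, Iigp1, Ifi47 and Gm4841), out of 24445 genes in the count table. They were listed by name as a gene family, with earlier results of these data known. Shares of all genes set beside the counts of members are therefore descriptions and not independent of these data. Each member was represented by the transcript chosen by the highest total count of its symbol. Gm4841 was in addition selected on its measured difference between genotypes after 3 h LPS, so that its values at 3 h, and comparisons that use them, are given without a test. The libraries came from bone marrow-derived macrophages (BMDMs), which are macrophages grown from mouse bone marrow in medium conditioned by L929 fibroblasts, and which were stimulated with lipopolysaccharide (LPS), a bacterial outer membrane component. Control cells were Acly fl/fl, with an exon of Acly between loxP sites, and Acly M-KO cells came from mice that carried these floxed alleles together with Lyz2-Cre, which removes the exon in myeloid cells. Lyz2-Cre was named for Acly M-KO cells only. What is called the effect of Acly deletion below therefore cannot be told apart from an effect of Lyz2-Cre. There were 4 groups: control after 3 h LPS (3 libraries), Acly M-KO after 3 h LPS (3 libraries), control after 24 h LPS (4 libraries) and Acly M-KO after 24 h LPS (3 libraries). All cells were exposed to LPS and no unstimulated library was analysed here, so that induction by LPS itself was not measured. The labels do not say whether replicates came from separate animals, and p-values then measure only the spread between these libraries.

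Interferon-inducible GTPases are made after interferon signalling, and in macrophages they guard against bacteria and parasites that live in vacuoles. Guanylate-binding proteins assemble on the membranes of pathogens and their vacuoles and help caspase-11 and other inflammasome components to sense them. The immunity-related GTPases comprise regulators, such as Irgm1, Irgm2 and Igtp, which keep the family inactive on the cell's own membranes, and effectors, such as Iigp1 and Ifi47, which load onto the vacuoles of pathogens. LPS makes macrophages secrete interferon beta, which acts on the same cells through their type I interferon receptors.

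The members lie on 3 chromosomes of the mouse genome (GRCm38, GENCODE annotation), and all are protein-coding. Gbp2 (chr3:142620602-142638008), Gbp3 (chr3:142560026-142573209), Gbp5 (chr3:142493978-142522344) and Gbp7 (chr3:142530342-142550149) follow each other on the plus strand of chromosome 3. Irgm1 (chr11:48861968-48871683, minus strand), Ifi47 (chr11:49076587-49096974, plus strand), Igtp (chr11:58199556-58207591, plus strand) and Irgm2 (chr11:58199618-58222782, plus strand) are on chromosome 11, and Iigp1 (chr18:60376027-60392634, plus strand) and Gm4841 (chr18:60268305-60273272, minus strand) are on chromosome 18. The GENCODE spans of Igtp and Irgm2 overlap on the same strand, although the RefSeq start of Irgm2 used below lies past the end of Igtp. Of the 50-base windows of the Igtp transcript, 12.3% also occur in a transcript of another gene, all of them in Irgm2. For Gbp7 this share was 12.8%, and of the 4 other genes involved the processed pseudogene Gm43802 inside its locus shared the most windows. For Gm4841 the share was 9.39%. Ifi47 overlaps Olfr56 on its strand and shares 3.71% of its windows with it. In the other 6 members the share was between 0.233% (Gbp5) and 6.86% (Irgm2). Reads from such windows cannot be assigned to 1 gene with certainty.

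Total counts were between 21274102 and 59577343 in 12 libraries, whereas control 24 h replicate 1 held 34467. In that library the members had between 0 (Gm4841) and 42 (Gbp5) counts, so that it was left out of the values below and put back as an alternative, and control after 24 h LPS therefore had n = 3, as did each other group. A gene was called if its adjusted p-value was below 0.05 and the groups differed by more than 0.75 on the log2 scale. Acly, the targeted gene, was lower in Acly M-KO by 1.34 on the log2 scale after 3 h and by 1.88 after 24 h LPS. All 9 macrophage markers were measured. Their summed level was 10930 to 11045 CPM (counts per library size, with TMM scaling between libraries) in control and 7921 to 8853 CPM in Acly M-KO after 3 h, and 6057 to 6358 CPM and 4554 to 4658 CPM after 24 h. Without Lyz2 the sums of the other 8 markers overlapped between the genotypes, at 5662 to 5824 CPM in control and 5649 to 5909 CPM in Acly M-KO after 3 h, and 3668 to 3837 CPM and 3610 to 3798 CPM after 24 h. Lyz2, whose locus drives the Cre, was called lower at both times (log2 fold change -0.97 and -1.40), and by the adjusted p-value alone 4 of the 9 were lower (6.91% of all genes) and 1 higher (8.5%) after 3 h, and 2 lower (5.57%) and 0 higher (8.32%) after 24 h. Of 18 markers of other cells only 3 (Cd4, S100a8 and S100a9) passed the filter on low counts. Sums over all 18 were 30.5 to 33.4 CPM in control and 20.9 to 27.2 CPM in Acly M-KO after 3 h, and 11.6 to 13.4 CPM and 7.91 to 9.16 CPM after 24 h. Most of these sums was Cd4, with means of 24.2 and 16.3 CPM after 3 h and 9.45 and 5.44 CPM after 24 h. The neutrophil marker Ly6g was at 0 in all 4 groups. Cd4 was called lower in Acly M-KO after 24 h (log2 fold change -0.80). The part of these marker differences in the results below was not tested, and in bulk libraries fewer cells of a type and less RNA per cell cannot be told apart.

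RefSeq promoter sequences (GRCm38.p6) were found for 8 of the 10 members, with Gbp3 represented by 2 starts. The 250 bases before the start were searched on both strands for the core of the interferon-stimulated response element (ISRE), which reads GAAA, any 2 bases and GAAA again, and is bound by IRF proteins, and for the interferon gamma-activated sequence (GAS), TTCNNNGAA, which was named for its response to interferon gamma. Matches of these 2 motifs did not overlap each other in the members. The ISRE core was present at a start of 7 of the 8 members, against 3.46% of all 27025 genes with such promoters, and GAS was present for 4 of the 8 members, against 8.13%. Over single promoters of this length the shares were 2.98% and 7.02% of 32851. The sequences of these 7 members are shown because they place the motifs close to the transcript start. They hold the last 120 bases before the start, written 5′ to 3′ along the gene, with ISRE core and GAS matches in capitals. They are chr3:142620543-142620662 for Gbp2, chr3:142559924-142560043 for the first start of Gbp3, chr3:142496814-142496933 for Gbp5 and chr3:142530216-142530335 for Gbp7, all on the plus strand. For the other members they are chr11:48871421-48871540 on the minus strand for Irgm1, and chr11:58214857-58214976 and chr11:58199436-58199555 on the plus strand for Irgm2 and Igtp.
Gbp2: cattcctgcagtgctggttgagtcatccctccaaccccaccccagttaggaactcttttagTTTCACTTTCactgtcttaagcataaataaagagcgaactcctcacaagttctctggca
Gbp3: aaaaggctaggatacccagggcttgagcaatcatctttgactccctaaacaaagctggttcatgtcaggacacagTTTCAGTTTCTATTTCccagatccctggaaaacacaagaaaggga
Gbp5: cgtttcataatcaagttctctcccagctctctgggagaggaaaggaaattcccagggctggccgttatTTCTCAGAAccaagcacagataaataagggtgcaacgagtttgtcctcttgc
Gbp7: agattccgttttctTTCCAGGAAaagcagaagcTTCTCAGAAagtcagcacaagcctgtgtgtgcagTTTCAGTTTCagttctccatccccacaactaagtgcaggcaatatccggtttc
Irgm1: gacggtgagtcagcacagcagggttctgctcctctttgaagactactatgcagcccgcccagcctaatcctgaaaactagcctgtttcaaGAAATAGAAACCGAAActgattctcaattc
Irgm2: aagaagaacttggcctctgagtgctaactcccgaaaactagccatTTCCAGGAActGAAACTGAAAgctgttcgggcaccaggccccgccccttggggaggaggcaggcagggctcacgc
Igtp: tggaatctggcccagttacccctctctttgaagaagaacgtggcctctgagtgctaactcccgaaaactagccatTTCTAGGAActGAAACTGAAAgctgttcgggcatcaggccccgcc

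In Gbp2, Gbp3 and Gbp7 the ISRE core read on the minus strand and began 59, 45 and 53 bases before the start, and the first start of Gbp3 held a second, overlapping match. In Irgm1 there were 2 overlapping ISRE cores on the plus strand, the first of them 30 bases before the start. Irgm2 and Igtp carried a GAS and an ISRE core on the plus strand with the same spacing, from 75 to 55 bases before the start in Irgm2 and from 45 to 25 bases in Igtp. The ISRE core of Gbp5 began 165 bases before the start, outside the stretch shown, and 1 of its 2 GAS matches lies within it. Neither motif was found in the 250 bases of Ifi47 or in those of the second start of Gbp3. A match of letters does not show that a factor binds there.

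**Figure D1:**
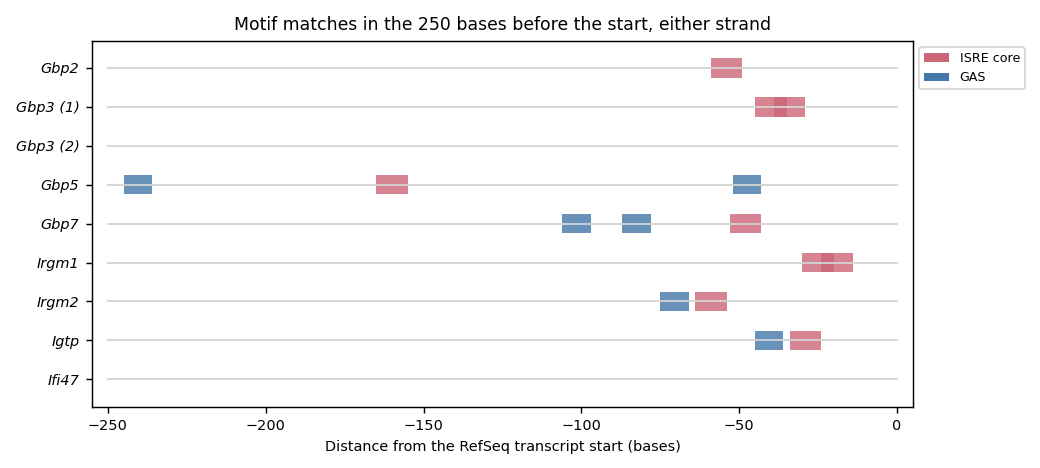
Positions of ISRE core and GAS matches in the 250 bases before the RefSeq transcript start of 8 members, in bases from the start. Red bars are ISRE cores and blue bars are GAS matches on either strand. 6 of the 7 members with an ISRE core hold one within the last 64 bases, and the lines of Ifi47 and of the second start of Gbp3 are empty.

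To compare levels between genes, the mean CPM was divided by transcript length in kilobases. After 3 h LPS in control cells Gbp5 was the highest member, at 610.5 CPM per kb, followed by Gbp2 (472.9) and Irgm1 (448.0), whose ranges over libraries overlapped. Ifi47 (255.7), Iigp1 (212.0), Igtp (180.4), Irgm2 (147.2) and Gbp3 (145.4) came next, and of these neighbours only Irgm2 and Gbp3 overlapped. Gbp7 was at 57.4 CPM per kb, and Gm4841 at 1.22 CPM per kb was the lowest member. After 24 h LPS in control cells Gbp2 led with 430.3 CPM per kb, ahead of Gbp5 (252.6), Irgm1 (202.3), Iigp1 (139.9) and Gbp3 (127.7), with overlap between the last pair alone. Below them were Ifi47 (107.7), Igtp (98.8), Irgm2 (67.8), Gbp7 (55.0) and Gm4841 (1.68 CPM per kb). In Acly M-KO cells the ranges of Gbp5 (495.1) and Gbp2 (470.8 CPM per kb) overlapped after 3 h, as did those of Igtp (154.3), Iigp1 (149.2) and Irgm2 (142.8 CPM per kb) next to each other. After 24 h the Acly M-KO order had no overlapping neighbours and ran from Gbp2 (503.5) over Gbp5 (276.4), Irgm1 (192.1), Gbp3 (163.6), Iigp1 (135.5), Igtp (127.1), Ifi47 (101.9), Irgm2 (77.0) and Gbp7 (64.4) to Gm4841 (1.77 CPM per kb). The summed level of the 10 members was 6592 to 6897 CPM in control and 5894 to 6157 CPM in Acly M-KO after 3 h, and 3895 to 4199 CPM and 4318 to 4643 CPM after 24 h.

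**Figure D2:**
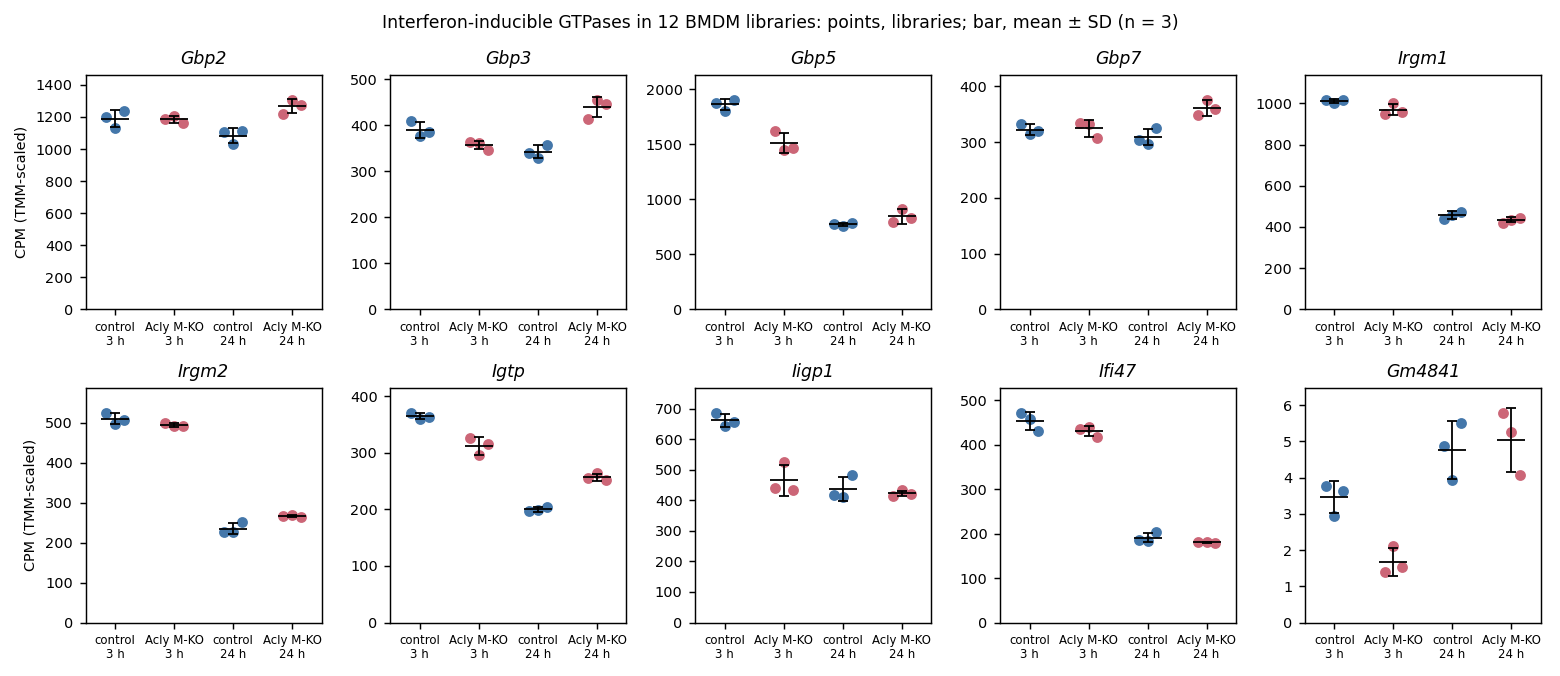
CPM of the 10 members in each of 12 libraries, with the mean and SD of 3 libraries per group as a bar. Blue points are control and red points are Acly M-KO libraries. Among members that passed the adjusted p-value, Gbp5, Igtp and Iigp1 are lower in all Acly M-KO than in all control libraries after 3 h. By the same rule Gbp2, Gbp3, Gbp7, Irgm2 and Igtp are higher in all Acly M-KO than in all control libraries after 24 h. Without passing, Gbp3 is also lower without overlap after 3 h, and after 24 h Gbp5 is higher and Ifi47 lower. The selected Gm4841 is lower without overlap after 3 h. The share of all genes without overlap was not counted.

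After 3 h LPS, the effect of Acly deletion on the members was small and downward where it passed the test. None of the 9 tested members was called by edgeR's quasi-likelihood test or by DESeq2 (0 by each), although 4 had an unadjusted p-value under 0.05, and 2.01% of all 11904 genes tested were called. By the adjusted p-value alone, a rule added after the values were seen, 3 of 9 members were lower in Acly M-KO, against 6.91% of all genes, and 0 of 9 were higher, against 8.5%. The median log2 fold change of the 9 members was -0.07, beside -0.0051 over all genes.

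Iigp1, an effector that loads onto pathogen vacuoles, had the largest difference of these 9 members at 3 h. It was at 686.1, 642.0 and 657.0 CPM in the control libraries and at 439.2, 524.6 and 432.8 CPM in the Acly M-KO libraries, and the groups did not overlap. The log2 fold change was -0.51 ± 0.067 (SE, n = 3 per group, edgeR quasi-likelihood test, Benjamini-Hochberg adjusted p = 1.8e-05). Gbp5, which promotes inflammasome assembly, was at 1880.8, 1807.9 and 1906.7 CPM in control and at 1621.8, 1452.4 and 1463.6 CPM in Acly M-KO. All 3 Acly M-KO libraries were below all controls, with a log2 fold change of -0.30 ± 0.052 (SE, edgeR adjusted p = 0.000118). Igtp, also known as Irgm3, is a regulator of the family, and it fell from 370.3, 360.4 and 363.8 CPM to 325.4, 295.5 and 314.8 CPM, again without overlap (log2 fold change -0.23 ± 0.048, SE, edgeR adjusted p = 0.00128).

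The other 6 members tested after 3 h did not pass even the adjusted p-value alone. Gbp3, a guanylate-binding protein of the chromosome 3 cluster, was at 409.7, 375.8 and 384.1 CPM in control and at 363.3, 360.4 and 346.2 CPM in Acly M-KO (log2 fold change -0.13 ± 0.051, SE, edgeR adjusted p = 0.0857). These groups did not overlap. The log2 fold changes of Gbp2 (-0.0063), Gbp7 (0.010), Irgm1 (-0.062), Irgm2 (-0.044) and Ifi47 (-0.074) were between -0.074 and 0.010, and in each of these 5 genes the control and Acly M-KO libraries overlapped. The sign of the Gbp2 value turned with another normalization and, like that of Gbp7, with the library left out.

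After 24 h LPS the members that passed the adjusted p-value were higher in Acly M-KO. Again 0 of 10 members were called by edgeR with the fold threshold and 0 by DESeq2, with 6 at an unadjusted p-value under 0.05 and 1.38% of all genes called. By the adjusted p-value alone, 5 of 10 members (Gbp2, Gbp3, Gbp7, Irgm2 and Igtp) were higher in Acly M-KO, against 8.32% of all genes, and 0 of 10 were lower, against 5.57%. The median log2 fold change was 0.16, beside 0.0057 over all genes.

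Igtp rose from 196.4, 198.1 and 204.9 CPM in control to 255.2, 263.8 and 252.1 CPM in Acly M-KO (log2 fold change 0.36 ± 0.048, SE, n = 3 per group, edgeR quasi-likelihood test, adjusted p = 2.92e-06). The groups did not overlap, so that Igtp was lower in all Acly M-KO libraries after 3 h and higher in all of them after 24 h. Igtp was the only member that passed the adjusted p-value with opposite signs at the 2 times. By that rule 54 of all 11904 genes (0.454%) were lower in Acly M-KO after 3 h and higher after 24 h. The reverse order was not counted over all genes. Gbp3 was at 340.2, 329.1 and 357.8 CPM in control and at 413.9, 455.4 and 446.8 CPM in Acly M-KO (log2 fold change 0.36 ± 0.050, SE, edgeR adjusted p = 7.37e-06), again without overlap. Gbp2, which acts on the vacuoles of Toxoplasma and on bacteria, was at 1107.1, 1028.6 and 1112.2 CPM in control and at 1219.0, 1308.0 and 1273.7 CPM in Acly M-KO (0.23 ± 0.047, SE, edgeR adjusted p = 0.000985). Its 3 Acly M-KO libraries were all above the controls.

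Gbp7, which has been tied to the assembly of the phagocyte oxidase on vacuoles, was at 303.9, 297.3 and 325.4 CPM in control and at 348.6, 376.3 and 360.2 CPM in Acly M-KO after 24 h. The groups did not overlap (log2 fold change 0.23 ± 0.050, SE, edgeR adjusted p = 0.00202). Irgm2, a regulator like Igtp, was at 227.2, 225.7 and 250.4 CPM in control and at 267.3, 267.7 and 263.7 CPM in Acly M-KO (0.18 ± 0.048, SE, edgeR adjusted p = 0.009). These groups did not overlap, but the adjusted p-value no longer passed without control 24 h replicate 2 (adjusted p = 0.0605, edgeR) or replicate 3 (adjusted p = 0.0678, edgeR). Gbp5, lower in Acly M-KO after 3 h, was at 772.0, 758.6 and 784.5 CPM in control and at 790.8, 916.1 and 826.0 CPM in Acly M-KO after 24 h. Although these ranges did not overlap, the difference did not pass (0.13 ± 0.052, SE, edgeR adjusted p = 0.0975), and it passed without Acly M-KO 24 h replicate 1 (adjusted p = 0.0478, edgeR). Irgm1 (log2 fold change -0.075), Iigp1 (-0.047), Ifi47 (-0.081) and Gm4841 (0.046) did not pass either, with adjusted p-values between 0.306 and 0.884 (edgeR). Iigp1, which differed most at 3 h, was at 416.5, 411.7 and 481.5 CPM in control and at 415.6, 433.5 and 419.4 CPM in Acly M-KO after 24 h, and these ranges overlapped. Those of Ifi47, listed with the change over time, did not overlap after 24 h, with all Acly M-KO libraries below the controls.

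**Figure D3:**
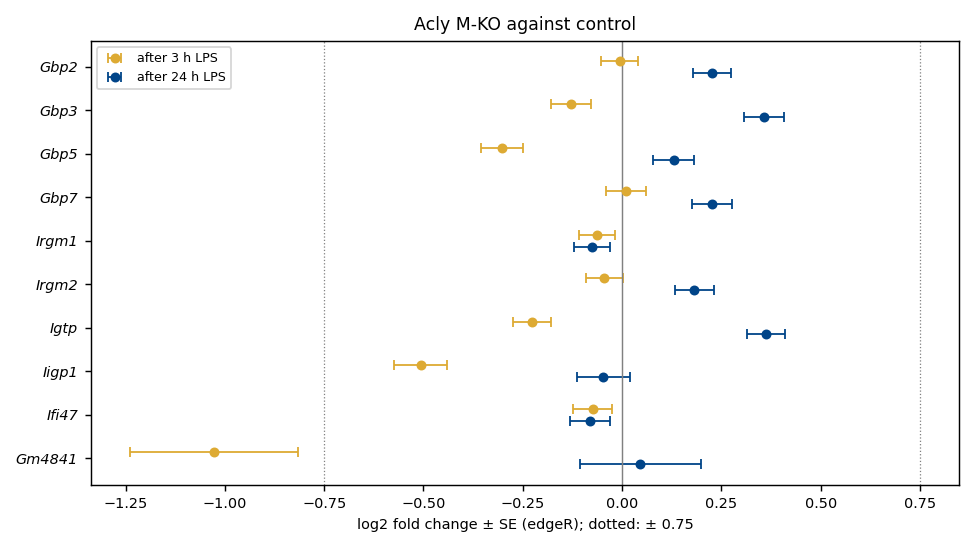
Log2 fold change of Acly M-KO against control with its SE for each member after 3 h (yellow) and 24 h LPS (blue), from the edgeR fit with 3 libraries per group. Dotted lines mark the fold threshold of 0.75. Igtp lies at -0.23 after 3 h and at 0.36 after 24 h, whereas Irgm1 and Ifi47 lie near 0 at both times. Gm4841 at 3 h was selected on this difference.

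Whether the effect of Acly deletion differed between the times was tested directly as an interaction, the 24 h log2 fold change minus that at 3 h. It passed for 6 of 9 members, and in all 6 the difference was positive, that is, more toward Acly M-KO after 24 h than after 3 h. Among all genes 9.53% passed and 4.86% passed with a positive sign. The median interaction of the 9 members was 0.23 on the log2 scale, beside 0.015 over all genes. The interaction was 0.59 ± 0.068 for Igtp, 0.49 ± 0.071 for Gbp3, 0.46 ± 0.094 for Iigp1 and 0.43 ± 0.073 for Gbp5 (SE), with adjusted p-values of 4.58e-07, 2.63e-05, 0.00299 and 0.000183 by edgeR, and these 4 calls were kept in every alternative run for them. For Iigp1 and Gbp5 the 3 h difference alone passed, and for Gbp3 the 24 h difference alone.

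The calls of Gbp2 (interaction 0.23 ± 0.067, SE, edgeR adjusted p = 0.0229) and Irgm2 (0.23 ± 0.068, SE, edgeR adjusted p = 0.0301) did not hold in every fit that left out 1 library. Over these fits the interaction itself was 0.1904 to 0.2608 for Gbp2 and 0.1903 to 0.2769 for Irgm2. The call of Gbp2 was lost in 6 of 12 fits that left out 1 library, with edgeR adjusted p-values of 0.0719 and 0.0619 without Acly M-KO 24 h replicates 2 and 3, 0.072 without Acly M-KO 3 h replicate 3, 0.0873 without control 24 h replicate 3, and 0.0818 and 0.109 without control 3 h replicates 1 and 3. The call of Irgm2 was lost in 9 of 12 such fits, with edgeR adjusted p-values of 0.0594 to 0.0644 without any 1 of the Acly M-KO 24 h libraries, 0.0701 without Acly M-KO 3 h replicate 3, 0.089 and 0.0938 without control 24 h replicates 2 and 3, and 0.0515 to 0.119 without any 1 of the control 3 h libraries. With the shallow control library put back, neither passed (0.122 and 0.106, edgeR adjusted p-values). Gbp7, at 0.22 ± 0.072 (SE, edgeR adjusted p = 0.0506), did not pass, and passed without Acly M-KO 24 h replicate 1 (0.049), Acly M-KO 3 h replicate 1 (0.029) or 2 (0.0363), or control 24 h replicate 4 (0.0273, all edgeR adjusted p-values). Irgm1 (-0.013) and Ifi47 (-0.0069) had interactions near 0, and their sign turned with the library left out.

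From 3 h to 24 h LPS, Gbp5 and 4 immunity-related GTPases fell past the threshold in control cells, whereas the log2 fold changes of Gbp2, Gbp3 and Gbp7 lay between -0.19 and -0.062. In control cells 5 of 9 members (Gbp5, Irgm1, Irgm2, Igtp and Ifi47) were called lower at 24 h, against 19.5% of all genes, and 0 were called higher, with 40.4% of all genes called in either direction. The median log2 fold change of the 9 members was -0.87, beside 0.043 over all genes. In Acly M-KO cells 4 of 9 (Gbp5, Irgm1, Irgm2 and Ifi47) were called lower, against 20% of all genes, and 0 were called higher, with 41.9% of all genes called and a median of -0.28 for the members.

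Ifi47, an effector, was at 471.3, 458.4 and 430.1 CPM in control cells after 3 h and at 186.4, 183.2 and 203.0 CPM after 24 h. Its Acly M-KO libraries, at 434.6, 439.4 and 417.5 CPM after 3 h and 180.5, 181.9 and 179.4 CPM after 24 h, showed the same separation of the times. The log2 fold change from 3 h to 24 h was -1.25 ± 0.051 in control and -1.25 ± 0.051 in Acly M-KO (SE, edgeR adjusted p = 5.58e-20 and 5.5e-20). Irgm1, the regulator needed for resistance to mycobacteria, went from 1018.1, 1000.4 and 1017.6 CPM to 438.4, 458.4 and 474.1 CPM in control, and from 950.7, 1000.9 and 956.0 CPM to 421.3, 434.8 and 445.6 CPM in Acly M-KO. It was lower at 24 h by 1.15 ± 0.046 in control and by 1.16 ± 0.046 in Acly M-KO on the log2 scale (SE), so that the fall of both genes had nearly the same size in both genotypes.

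For Gbp5 the log2 fold change from 3 h to 24 h was -1.27 ± 0.053 in control and -0.84 ± 0.052 in Acly M-KO, for Irgm2 -1.12 ± 0.048 and -0.89 ± 0.048, and for Igtp -0.87 ± 0.048 and -0.28 ± 0.048 (SE). Iigp1 fell less than the fold threshold in control (-0.60 ± 0.066, SE, edgeR adjusted p = 4.56e-08) and did not pass in Acly M-KO (-0.14 ± 0.066, SE, edgeR adjusted p = 0.0632). The difference between genotypes in these changes is the interaction given above. The other 3 guanylate-binding proteins changed less. Gbp3 was lower at 24 h in control (-0.19 ± 0.050, SE, edgeR adjusted p = 0.0014) and higher at 24 h in Acly M-KO (0.30 ± 0.050, SE, edgeR adjusted p = 3.96e-06), below the fold threshold in both. Gbp2 was at -0.14 in control (edgeR adjusted p = 0.0104) and 0.097 in Acly M-KO (edgeR adjusted p = 0.0623), and Gbp7 at -0.062 (edgeR adjusted p = 0.27) and 0.16 (edgeR adjusted p = 0.00669).

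**Figure D4:**
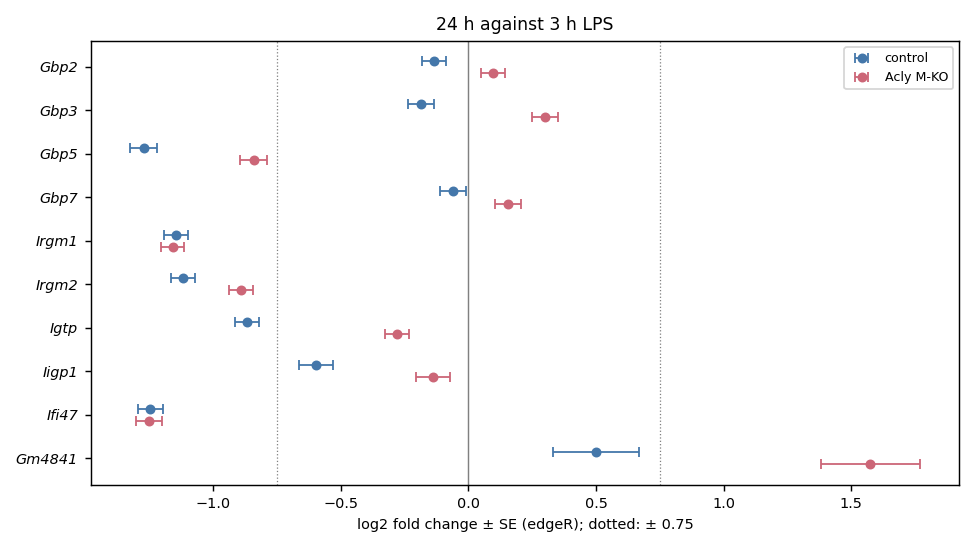
Log2 fold change from 3 h to 24 h LPS with its SE for each member in control (blue) and Acly M-KO cells (red), from the edgeR fit. Dotted lines mark the fold threshold of 0.75. Irgm1 and Ifi47 coincide in both genotypes near -1.2, and Igtp lies at -0.87 in control and at -0.28 in Acly M-KO. The values of Gm4841 share the 3 h libraries it was selected on.

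Gm4841, a gene of the immunity-related GTPase cluster around Iigp1, was the least abundant member and was selected on its 3 h difference. It was at 3.77, 2.95 and 3.64 CPM in control (76, 63 and 73 counts) and at 1.38, 2.10 and 1.54 CPM in Acly M-KO (27, 48 and 32 counts) after 3 h. The Acly M-KO libraries were all below the controls, with a log2 fold change of -1.03 ± 0.21 (SE). Its size and separation at 3 h were what the selection used, so they are not set against the threshold or the other members. After 24 h, in libraries that the selection did not use, it was at 4.88, 3.92 and 5.51 CPM in control and at 5.78, 5.27 and 4.07 CPM in Acly M-KO. These ranges overlapped, and the log2 fold change was 0.046 ± 0.15 (SE, edgeR adjusted p = 0.884). From 3 h to 24 h it was higher by 0.50 in control and by 1.57 in Acly M-KO on the log2 scale, which is a description that shares the selecting libraries.

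A further 20 interferon-inducible GTPases outside the members were taken from a list of guanylate-binding proteins, immunity-related GTPases, Mx proteins and very large GTPases. Under the call with the fold threshold, 0 of 20 were called at either time by edgeR or DESeq2, with 13 at an unadjusted edgeR p-value under 0.05 after 3 h and 10 after 24 h. By the adjusted p-value alone, 9 of 20 were lower in Acly M-KO after 3 h (6.91% of all genes) and 0 higher, and 4 of 20 were higher after 24 h (8.32% of all genes) and 0 lower. The interaction passed for 9 of 20, all of them positive (4.86% of all genes). Median log2 fold changes of the 20 genes were -0.21 after 3 h and 0.041 after 24 h, with a median interaction of 0.34.

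The following genes of that list were picked after their values were seen. Gbp4, Gbp6 and Gbp8 differed in Acly M-KO by -0.54 ± 0.089, -0.54 ± 0.055 and -0.74 ± 0.12 on the log2 scale after 3 h (SE, edgeR adjusted p = 0.000839, 2.52e-08 and 3.93e-05). After 24 h they were at 0.23, 0.078 and 0.026, none of which passed. Gbp6 was at 127.7, 119.7 and 124.4 CPM in control and at 91.0, 81.5 and 83.2 CPM in Acly M-KO after 3 h, without overlap. Tgtp2, an immunity-related GTPase that loads onto vacuoles, was at -0.59 ± 0.061 after 3 h (SE, edgeR adjusted p = 3.31e-08) and at -0.15 after 24 h (edgeR adjusted p = 0.0868). Gbp9 was the 1 gene of the list with opposite signs past the adjusted p-value, at -0.32 after 3 h and 0.20 after 24 h (edgeR adjusted p = 0.000522 and 0.0289). Mx2, an antiviral dynamin-like GTPase, was at 0.0002 after 3 h and at 0.53 ± 0.059 after 24 h (SE, edgeR adjusted p = 1.26e-07).

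**Figure D5:**
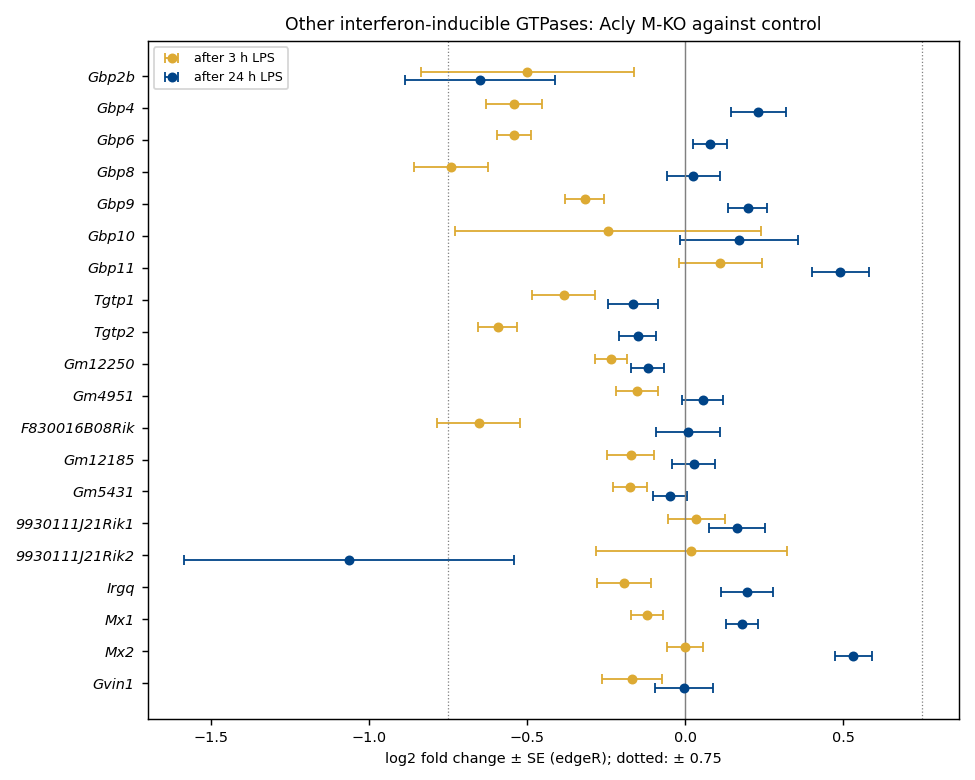
Log2 fold change of Acly M-KO against control with its SE for 20 other interferon-inducible GTPases after 3 h (yellow) and 24 h LPS (blue), from the edgeR fit. Dotted lines mark the fold threshold of 0.75. After 3 h 16 of the 20 values are below 0, and after 24 h 13 are above 0.

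Genes upstream of the members were taken from a list of interferons, their receptors and signalling proteins, of which 19 of 21 passed the filter on low counts. Ifnb1, which encodes interferon beta, was the 1 gene called in either comparison of genotypes. It was at 2.18, 1.73 and 2.04 CPM in control and at 3.94, 8.18 and 4.38 CPM in Acly M-KO after 3 h (44, 37 and 41 against 77, 187 and 91 counts), so that Acly M-KO replicate 2 stood above the rest. The log2 fold change was 1.48 ± 0.24 (SE, edgeR adjusted p = 0.000186), and 1.07 ± 0.21 (SE) without that library. After 24 h it was at 0.57 ± 0.27 (SE, edgeR adjusted p = 0.177).

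Ifnar1 and Ifnar2, the chains of the type I interferon receptor, were at -0.14 and -0.29 on the log2 scale in Acly M-KO after 3 h (edgeR adjusted p = 0.115 and 0.000358) and at 0.16 and -0.047 after 24 h (edgeR adjusted p = 0.0614 and 0.627). Their interactions were positive and passed (0.30 and 0.24, edgeR adjusted p = 0.0186 and 0.0408). Ifngr1, a chain of the interferon gamma receptor, was lower at both times (-0.26 and -0.40, edgeR adjusted p = 0.00142 and 1.09e-05), whereas Ifngr2, the other chain, was at 0.021 after 3 h and higher after 24 h (0.25, edgeR adjusted p = 0.00183). Stat2, a signalling protein of the type I receptor, was lower after 3 h (-0.15, edgeR adjusted p = 0.0307) and at 0.069 after 24 h (edgeR adjusted p = 0.384). Irf9 (-0.061 and -0.078) and Irf1 (-0.056 and -0.024) did not pass at either time (edgeR adjusted p between 0.384 and 0.809). Over the whole list, 5 of 19 genes were lower (6.91% of all genes) and 5 higher (8.5%) by the adjusted p-value alone after 3 h, and 2 were lower (5.57%) and 6 higher (8.32%) after 24 h, with medians of -0.025 and 0.11. From 3 h to 24 h in control cells Irf1, a factor that switches on many of the members, fell by 2.15 on the log2 scale, whereas Irf7, an interferon-induced factor of the same family that was picked after its values were seen, was higher by 2.17. Irf7 was also higher in Acly M-KO after 3 h (0.36, edgeR adjusted p = 0.0111) and at -0.032 after 24 h (edgeR adjusted p = 0.855).

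Genes whose products act with the members were taken from 3 further lists. In a list of autophagy conjugation and ubiquitin genes used to load the GTPases onto vacuoles, 13 of 14 were tested and 0 were called by edgeR or by DESeq2. By the adjusted p-value alone 1 was higher after 3 h, near the 8.5% of all genes, and 3 after 24 h (8.32% of all genes), with 0 lower at either time, and 2 and 6 had unadjusted p-values under 0.05 by edgeR. Of 8 inflammasome genes 0 were called by either tool, with 2 higher (8.5% of all genes) and 1 lower (6.91%) by edgeR's adjusted p-value alone after 3 h, and 2 higher (8.32%) and 0 lower (5.57%) after 24 h. By DESeq2's adjusted p-value 0 were lower after 3 h. At each time 3 of the 8 had an unadjusted p-value under 0.05 by edgeR. Of 11 genes of protein prenylation, which anchors Gbp2 and Gbp5 in membranes and draws on the pathway downstream of Acly, 0 passed at either time even by the adjusted p-value alone in edgeR or DESeq2, with 2 and 0 at an unadjusted p-value under 0.05 by edgeR and medians of -0.003 and 0.018.

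Over the 12 libraries the members fell into sets with different patterns. Pearson correlations of log2 CPM, which are descriptions and rest on libraries of the same 4 groups, were 0.86 between Gbp2 and Gbp3, 0.86 between Gbp2 and Gbp7 and 0.91 between Gbp3 and Gbp7. They were between 0.971 and 0.997 among Gbp5, Irgm1, Irgm2 and Ifi47. Igtp correlated at 0.94 with Gbp5, 0.87 with Irgm1 and 0.45 with Gbp2. Iigp1 correlated at 0.70 to 0.78 with Gbp5, Irgm1, Irgm2 and Ifi47. Between Gbp3 and Irgm1 the correlation was -0.21. The mean of the members' standardized log2 CPM includes each member itself, and Gm4841 with its selected 3 h values. With that mean Igtp correlated at 0.93 and Gbp5 at 0.84, and Gbp7 (0.38) and Gm4841 (-0.29) were lowest. The 5 genes outside the members with the highest correlation with that mean, among genes with a mean of at least 10 CPM, were Rnf4 (0.94), a ubiquitin ligase, Rsad2 (0.94), which encodes the antiviral protein viperin, Rabgef1 (0.93), Kdm5a (0.93) and Il13ra1 (0.93), each over the same 12 libraries.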

How the data were processed

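RNA was measured in 13 libraries of LPS-stimulated BMDMs. For strand-specific mRNA libraries the authors aligned reads to mm10 with STAR 2.5.2b and deposited raw counts of tags per RefSeq transcript, summed with HOMER, without normalization (CASAVA 1.8.2 is also named in the submitters' processing notes). The strand and isoform settings of the counting are not given in the sources used here, so antisense and overlapping genes can share tags. Of 35745 transcripts, 35628 were given a symbol through RefSeq and GENCODE tables, which made 24445 genes, and the transcript with most counts stood for its gene. Members with several transcripts were Ifi47 (3), Gbp3 (3), Gbp7 (2) and Iigp1 (2). All transcripts of Gbp7 and of Iigp1 held identical counts. Of the 3 transcripts, 2 held the counts used here in Gbp3 and 1 in Ifi47. Results of the remaining transcripts are not given.

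Samples were grouped by the genotype, time and replicate in their labels. Counts were tested in R 4.3.3 with edgeR 4.0.16 (TMM, filterByExpr, robust quasi-likelihood fit of 4 groups) over 12 libraries, leaving out control 24 h replicate 1, in which 1 count equals 22.4 CPM. Benjamini-Hochberg adjustment ran over 19621 transcripts of 11904 genes. Calls needed an adjusted p-value below 0.05 and an absolute log2 fold change above 0.75, and an interaction at the adjusted p-value alone. CPM are TMM-scaled, and log2 CPM used a prior count of 2. Intervals for counts cover counting error only. Scripts were tested on simulated data. Alternatives were all 13 libraries, RLE normalization, no filter, DESeq2 1.42.0, 1 transcript per gene, another fold threshold, a replicate block, 1 time point only and each library left out. Counts by the adjusted p-value alone were added after the data were seen.

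The members and gene lists were chosen with earlier results of these data known. Named are all members, list genes called between genotypes, interferon receptors and factors, Acly, and the 5 genes most like the members' mean. S100a8, S100a9, Ly6g, overlapping or sequence-sharing neighbours, Gbp4, Gbp6, Gbp8, Gbp9, Tgtp2, Mx2 and Irf7 were named after their values were seen. Of the signalling list, 1 gene is not reported here and was left out of its counts.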

Additional observations from a re-analysis of the deposited data

Results flagged for a closer look

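Among the 4 control libraries after 24 h LPS, control replicate 1 lay far from the others for Gbp5 and Irgm1. The gap to the nearest library was 0.8404 of the whole range for Gbp5 and 0.8372 for Irgm1. In that library Gbp5 was at 941.1 CPM (42 counts, 95% Poisson interval 678.3 to 1272 CPM) and the others at 775.2 to 801.7 CPM, and Irgm1 was at 672.2 CPM (30 counts, 453.6 to 959.7 CPM) and the others at 448.0 to 484.5 CPM. Both intervals, which cover counting error only, reach down to the levels of the other libraries. The rule picks out about 1 in 20 groups by chance only if all libraries vary alike. This shallow library has a larger counting error than the others, so the rate here is not known.

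The effect of Acly deletion differed between 3 h and 24 h LPS, by the interaction test in edgeR, for Gbp2 (0.2329), Gbp3 (0.4856), Gbp5 (0.4319), Irgm2 (0.2266), Igtp (0.589) and Iigp1 (0.4601 on the log2 scale). All 6 differences were positive. Of these, the calls of Gbp2 and Irgm2 were lost in 6 and 9 of 12 fits that left out 1 library.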

How the results depend on the processing

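The counts of 0 members called at 3 h and at 24 h stayed at 0 in each alternative with a fold threshold, and by the adjusted p-value alone they were 3 and 5. The count of interactions, 6 as reported, was 4 with all 13 libraries, 7 with DESeq2, 5 without the filter and 4 to 7 with 1 library left out. Changes from 3 h to 24 h numbered 5 in control (40.4% of all genes) and 4 in Acly M-KO (41.9% of all genes). With a fold threshold of 1, Igtp (log2 fold change -0.87) was no longer called in control. In Acly M-KO 2 members stayed called at that threshold. The share of all genes at a fold threshold of 1 was not counted. By the adjusted p-value alone, 8 members were lower in control, and 5 were lower and 2 higher in Acly M-KO. The share of all genes under that rule was not counted for these changes. It cannot be below the 40.4% and 41.9% called with the fold threshold, so these member counts are not read as particular to the members. Of 187 values of single members under alternatives that left out no library, 178 kept their direction and side of the threshold. Values near 0 turned sign: Gbp2 at 3 h was 0.0003 under RLE normalization and -0.0366 to 0.0252 with 1 library left out, Gbp7 at 3 h was -0.0099 to 0.0489, Iigp1 at 24 h -0.0881 to 0.029, Gm4841 at 24 h -0.0655 to 0.1927, and the interactions of Irgm1 and Ifi47 were -0.042 to 0.0143 and -0.0511 to 0.0402. The cause of these turns was not tested. Replicate numbers did not pair the libraries (correlations of deviations between -0.028 and 0.066). With a replicate block the interaction count was 7, Gbp7 being added (adjusted p = 0.0407, edgeR), and the sign turned for Iigp1 at 24 h (0.0383) and for the interactions of Irgm1 (0.0251) and Ifi47 (0.0287). Irgm2's interaction did not pass without the filter (adjusted p = 0.0843, edgeR), and Gbp7's passed with DESeq2 (adjusted p = 0.046). Depth limits Gm4841 most, at 27 to 76 counts per library after 3 h.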
